A study of Mus musculus with 2 samples.

Results

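The genes described here are 43 cell cycle genes: 12 that act in G1, 11 of S phase, 15 mitotic genes and 5 inhibitors of the cycle. They were chosen by name for their function, not by any measured value, though earlier results of these data were known. All 43 names matched 1 of the 21938 protein-coding genes of the annotation. H3K27ac, an acetylation of histone H3 found at active promoters and enhancers, was profiled by ChIP-seq (chromatin immunoprecipitation, then sequencing) in unstimulated macrophages derived from bone marrow of the C57BL/6J strain. The single group holds 2 biological replicates, which are separate biosamples listed under the same donor entry. Both carry no treatment or transgene in the labels, the starting DNA was 10 ng in each with a labelled size range between 350 and 480 (no unit given), and age, sex and stage were not recorded. There is no second condition, so classes of genes were described beside one another and beside all protein-coding genes.

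A cell leaves G1 when D-type cyclins with Cdk4 or Cdk6, and then cyclin E with Cdk2, phosphorylate the retinoblastoma protein and release E2F factors, which drive the genes of DNA replication. The genes of mitosis are switched on later, largely through paired CHR and CCAAT elements bound by the MuvB and NF-Y complexes. Inhibitors such as p21 and p27 hold the kinases in check. Macrophages cultured from bone marrow divide in response to colony-stimulating factor 1 before they mature.

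Replicate 1 held 29543 peaks and replicate 2 held 29345, and a replicated list drawn from both libraries held 32877. The sources used here do not give the read depth, so the absence of a peak means that no call passed the authors' threshold, not that H3K27ac was absent. All 8 macrophage markers checked had a promoter peak in both replicates, Csf1r among them with a fold of 48.4 and 35.7 in replicates 1 and 2, and 0 of 10 markers of T cells, B cells, neutrophils, fibroblasts and epithelium had one in either. These markers were chosen with earlier results of these data known, so the split is a description. The share of dividing cells is not known from these files, and in a bulk sample more acetylated cells and more acetylation per cell cannot be told apart.

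The promoter letters of 7 members are shown first, because the short words they hold fell unequally over the classes. Each line gives the 150 bases of the GRCm38 genome before the representative start, written 5′ to 3′ in the direction of transcription. The representative start is that of the transcript with the best principal-isoform tag. Capitals mark 4 words, read on both strands: the E2F word (TTTCCCGC, TTTCGCGC, TTTGCCGC or TTTGGCGC), the CHR word TTTGAA, the CCAAT word CCAAT, and the E-box CACGTG. A word on the other strand appears as its reverse complement, such as ATTGG for CCAAT or TTCAAA for CHR. Mcm5 (chr8:75109419-75109568, forward strand) and Mcm6 (chr1:128359665-128359814, reverse) show the E2F word of the replication genes. Cdk1 (chr10:69352939-69353088, reverse), Top2a (chr11:99024190-99024339, reverse), Kif11 (chr19:37376253-37376402, forward) and Cdc20 (chr4:118437353-118437502, reverse) show the CHR and CCAAT words of mitotic genes. Cdk4 (chr10:127063384-127063533, forward) shows E-boxes, the letters that Myc with its partner Max is known to bind.
Mcm5: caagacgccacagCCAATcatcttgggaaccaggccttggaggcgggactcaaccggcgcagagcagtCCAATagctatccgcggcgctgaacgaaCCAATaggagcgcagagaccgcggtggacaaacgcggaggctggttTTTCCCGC
Mcm6: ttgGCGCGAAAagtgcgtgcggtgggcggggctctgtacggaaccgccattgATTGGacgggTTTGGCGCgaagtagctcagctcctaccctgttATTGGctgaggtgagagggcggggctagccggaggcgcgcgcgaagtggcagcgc
Cdk1: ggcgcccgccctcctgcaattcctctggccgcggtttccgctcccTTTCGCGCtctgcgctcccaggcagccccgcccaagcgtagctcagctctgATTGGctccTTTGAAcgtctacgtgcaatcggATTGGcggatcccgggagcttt
Top2a: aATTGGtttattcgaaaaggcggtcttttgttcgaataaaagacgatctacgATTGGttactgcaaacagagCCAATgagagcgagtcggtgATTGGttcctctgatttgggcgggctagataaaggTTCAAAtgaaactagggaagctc
Kif11: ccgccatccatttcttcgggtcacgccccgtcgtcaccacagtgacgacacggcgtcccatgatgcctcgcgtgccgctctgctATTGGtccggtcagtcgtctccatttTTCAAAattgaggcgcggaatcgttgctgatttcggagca
Cdc20: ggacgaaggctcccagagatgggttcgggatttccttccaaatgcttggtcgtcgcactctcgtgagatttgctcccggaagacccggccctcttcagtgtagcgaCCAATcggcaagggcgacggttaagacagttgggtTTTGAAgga
Cdk4: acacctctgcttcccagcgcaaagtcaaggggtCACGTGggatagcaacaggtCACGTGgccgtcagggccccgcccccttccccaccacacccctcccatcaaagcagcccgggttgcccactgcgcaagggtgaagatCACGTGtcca

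The E2F word lay in the window from 200 bases before to 50 after the start in 6 of 11 S phase members (54.5%), in 3 of 12 G1 members (Cdk2, E2f1 and E2f2), in 2 of 5 inhibitors (Rb1 and Cdkn2a) and in 1 of 15 mitotic members (Cdk1). Over all protein-coding genes the share was 2.54%, and over those whose start has an observed over expected CpG ratio of at least 0.6 it was 4.23%. The S phase genes with it were Mcm3, Mcm4, Mcm5, Mcm6, Cdc6 and Cdt1. The CHR word lay in 9 of 15 mitotic members (60%), against 2 of 12 in G1, 1 of 11 in S phase, 0 of 5 inhibitors and 12.3% of all genes. All 9 of these mitotic members, Ccnb2, Cdk1, Mki67, Top2a, Aurka, Aurkb, Plk1, Kif11 and Cdc20, held a CCAAT word in the same window, a pair found in 4.85% of all genes. The CCAAT word, counted with or without CHR, lay in 13 of 15 mitotic members, 7 of 11 in S phase and 34.5% of all genes. In this window the E-box was found in Cdk4 at 4 places and once each in Ccne2 and E2f3, and in no member outside G1. These are 3 of 43 members (6.98%), near the 6.89% of all genes. Of genes with a CpG ratio of at least 0.6, 9.72% held it. A match is a description of letters, and the absence of one says only that these letters are not in this window.

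**Figure D1:**
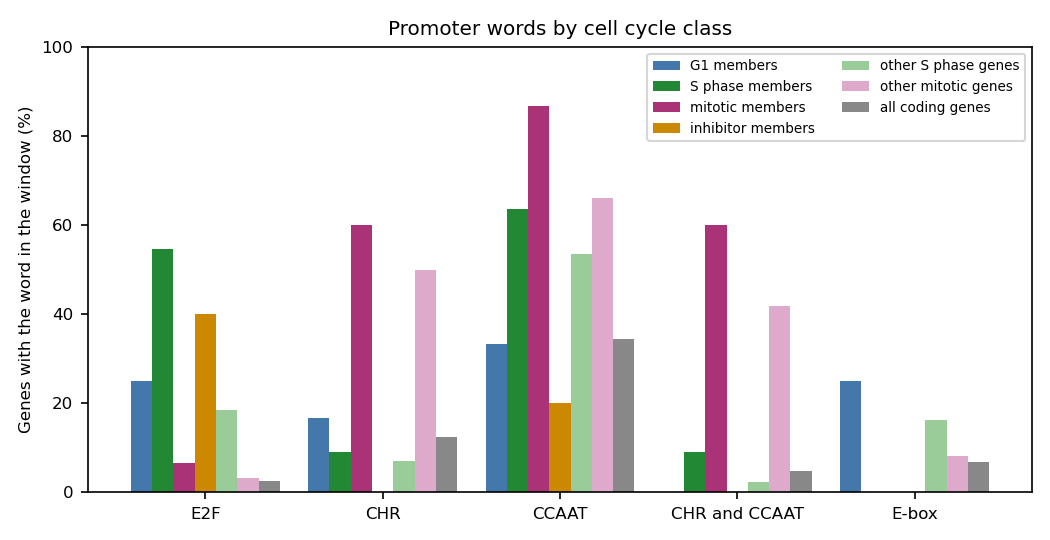
Share of genes (vertical axis, percent) whose window from 200 bases before to 50 after the representative start holds each word, for the 4 classes of members, for other S phase and mitotic genes, and for all protein-coding genes. The E2F bar is highest for S phase members (54.5%), and the bars for CHR and for CHR with CCAAT are highest for mitotic members (60%).

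Nearly all members carried H3K27ac at their promoter. A gene counted as marked if both replicates had a peak touching the window from 1 kb before to 1 kb after one of its starts, and 40 of 43 members (93.0%) were marked, against 39.4% of all protein-coding genes. Many cell cycle genes start in CpG-rich sequence, where a peak is more usual: 37 of 43 members had a CpG ratio of at least 0.6 around the start, of which 34 were marked, and 61.4% of all genes at or above that ratio were marked. All 15 mitotic members were marked, as were 11 of 12 G1 members (91.7%), 10 of 11 S phase members (90.9%) and 4 of 5 inhibitors (80%). In replicate 1 alone 40 members had a promoter peak, where 40.5% of all genes did, and in replicate 2 alone 43 did, where the share was 41.6%. The members without a replicate 1 peak were Ccne1, Mcm3 and Cdkn2a, 1 each of G1, S phase and the inhibitors, so each of these classes lacked 1 gene.

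These 3 promoters had a low peak in replicate 2. At Ccne1, cyclin E1, the peak had a fold of 4.36 over control or background and lay at the 20.9th percentile of its list, and the nearest replicate 1 peak was 75219 bp away. At Mcm3, a subunit of the replicative helicase, the fold was 2.68, near the bottom of the list at percentile 0.421, and the nearest replicate 1 peak was 193287 bp away. Mcm3 was the exception within its complex, since Mcm2, Mcm4, Mcm5, Mcm6 and Mcm7 were all marked. Both peaks were also in the replicated list, with folds of 4.45 and 3.15.

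Cdkn2a codes for the inhibitors p16 and p19Arf from separate starts. The p19Arf start, of transcript Cdkn2a-202, had a replicate 2 peak of 4.36-fold at chr4:89295505-89295961, which lies 852 bp upstream of it. The p16 start, of Cdkn2a-201 and 12461 bp downstream, had no peak in either replicate. Neither start had a peak in the replicated list, and the nearest replicate 1 peak was 104133 bp away. The p19Arf start stands in CpG-rich sequence, with a CpG ratio of 0.983, and holds an E2F word.

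**Figure D2:**
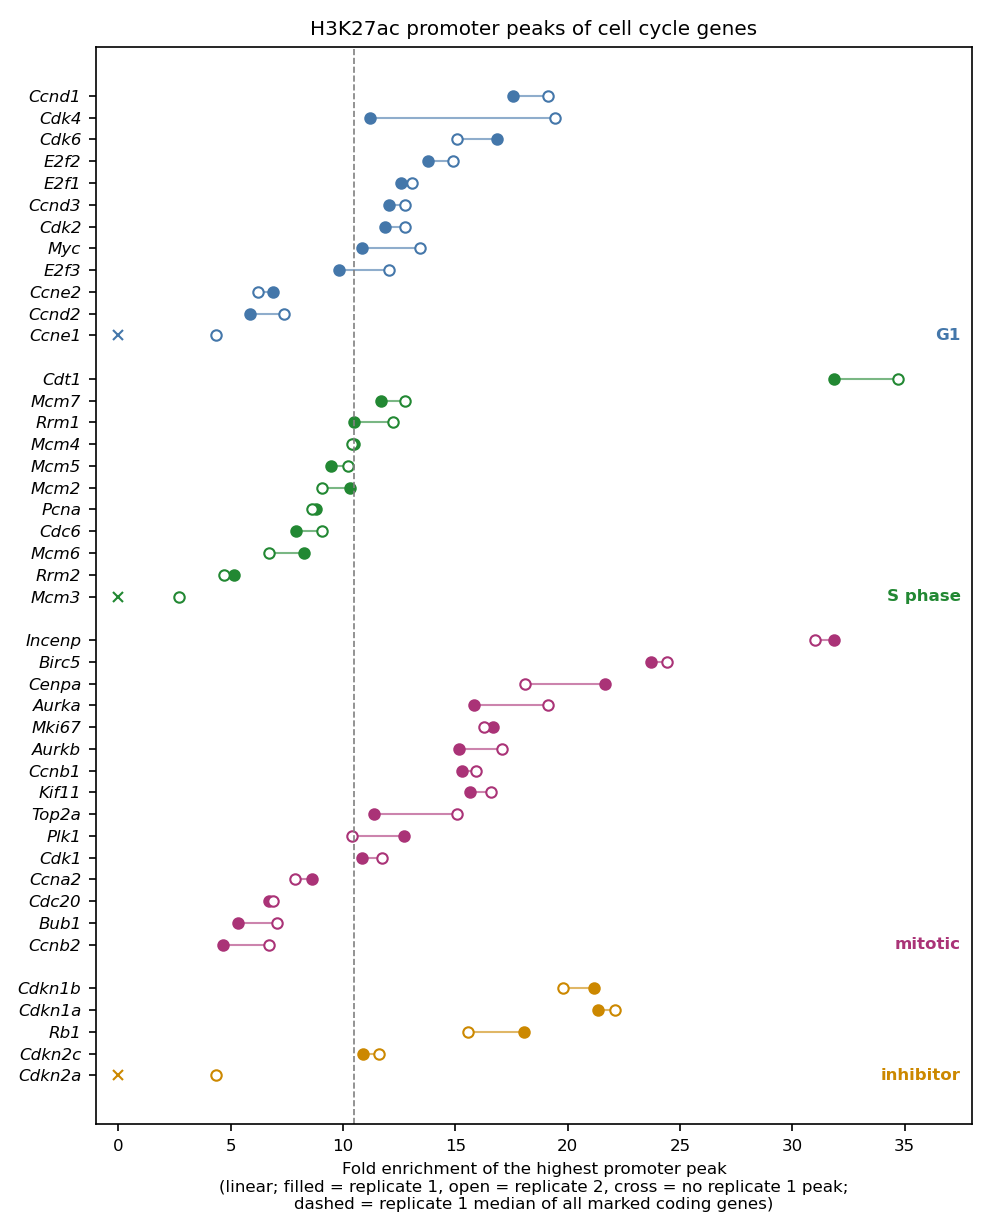
Fold enrichment of the highest promoter peak (horizontal axis, linear) of each member in replicate 1 (filled) and replicate 2 (open), grouped by class and ordered by fold in the replicated list. Crosses mark Ccne1, Mcm3 and Cdkn2a, which had no replicate 1 peak, and the dashed line is the replicate 1 median over all marked genes (10.5).

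In the values that follow, folds are the authors' own, and each pair gives replicate 1 and then replicate 2. Over the 40 marked members the ratio of replicate 2 to replicate 1 ran from 0.812 at Mcm6 to 1.74 at Cdk4, with a median of 1.06, so members closer than that in fold cannot be ordered.

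Among the D-type cyclins, which couple growth factors to the cycle, Ccnd1 had folds of 17.6 and 19.1, and could not be ordered against Cdk4 or Cdk6. Its peaks ran from 3035 bp before the start to 4133 bp after it in replicate 1, in 3 pieces, and formed a single peak of 6085 bp in replicate 2. Ccnd2 was far lower, at 5.85 and 7.37, and its replicate 1 peak lay more than 1 kb downstream of the representative start. Ccnd3 had no peak in either replicate at its representative start. The peaks that marked Ccnd3, of 12.05 and 12.7-fold, lay at internal coding starts 88385 bp downstream. Distal peaks inside the gene lay 3756 and 17856 bp from the 5′ end, the second with folds of 17.6 and 21.5.

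The kinases that pair with these cyclins were all marked. Cdk4 had folds of 11.2 and 19.4, the widest gap between replicates of any marked member. Cdk6 had folds of 16.9 and 15.1, in 5 separate peaks in replicate 1 and 3 in replicate 2. Cdk2, the partner of cyclin E, had folds of 11.9 and 12.7, and its peak also spans the start of Pmel, a pigment cell gene. Cyclin E2, Ccne2, was near the bottom of the class with 6.88 and 6.20 in a peak of only 531 and 491 bp. Ccne2 had lower values than Cdk2, Cdk4 and Cdk6 in both replicates, although in replicate 1 its distance from Cdk2 and Cdk4 was within the widest ratio between replicates.

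The activator E2F genes lay in the middle of the class. E2f1 had folds of 12.6 and 13.1, E2f2 of 13.8 and 14.9, and E2f3 of 9.81 and 12.1. E2f2 stood out by width: its peak in replicate 1 covered 7430 bp of the gene's first part, and in the replicated list 7793 bp, the widest promoter peak of any member. In replicate 2 the same stretch was called in pieces, the highest of them 2965 bp wide. For E2f3 the highest peaks of the 2 replicates did not overlap, and lay on either side of the more upstream of its 2 start clusters, which are 1672 bp apart.

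Myc, the growth-driving transcription factor upstream of Ccnd2 and Cdk4, had moderate promoter folds of 10.8 and 13.4. A row of 3 peaks in each replicate covered its promoter and first part, from 2246 bp before to 2504 bp after the representative start in replicate 1. Within 25 kb it had 3 distal peaks, 13974, 14853 and 17305 bp downstream, all low, with folds between 4.52 and 6.88 in either replicate. A higher peak lay 71.6 kb downstream, at chr15:62055224-62058790 inside the non-coding RNA gene Pvt1, with folds of 30.4 and 31.0, above the folds of the Myc promoter itself. It was singled out after its values were seen. Between 25 and 500 kb downstream there were 14 shared distal peaks in all, 4 of them within 100 kb, each nearer to Myc than to any other protein-coding start. No shared distal peak, which lies over 1 kb from every protein-coding start, was found up to 1000 kb upstream.

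The S phase class had the lowest median fold, 10.3 in the replicated list, with 1 gene far above the rest. Cdt1, which loads the helicase at origins, had folds of 31.8 and 34.7, a peak of 5713 and 6028 bp (chr8:122563816-122569528 in replicate 1) and the 97.6th percentile of the replicated list. Its partner in loading, Cdc6, had only 7.92 and 9.05 at the promoter, but a distal peak 10063 bp downstream inside Cdc6 with folds of 21.2 and 20.7. The helicase subunits with a peak in both replicates ran from 6.70 to 12.7: Mcm2 had 10.3 and 9.05, Mcm4 10.5 and 10.4, Mcm5 9.46 and 10.2, Mcm6 8.26 and 6.70, and Mcm7 11.7 and 12.7. The peaks of Mcm4 and Mcm7 also cover the starts of Prkdc and Ap4m1, divergent neighbours from which they cannot be told apart.

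Of the other replication members, Pcna, the sliding clamp of the polymerases, had folds of 8.78 and 8.61. The subunits of ribonucleotide reductase, which makes deoxynucleotides, differed: Rrm1 had 10.5 and 12.2, and Rrm2, the subunit whose level rises in S phase, had 5.16 and 4.69. That difference was larger than the gap between replicates of either gene.

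The mitotic class held several of the highest folds. Incenp and Birc5, subunits of the chromosomal passenger complex that carries Aurora B, had folds of 31.8 and 31.0 and of 23.7 and 24.4, at the 97.6th and 93.8th percentile of the replicated list. Aurkb, the kinase of that complex, had 15.1 and 17.1, and its relative Aurka 15.8 and 19.1 in a peak that also covers the start of Cstf1. Cenpa, the histone variant of centromeres, had 21.7 and 18.1. These 3 subunits of the complex were above the median of marked genes, which was 10.5 in replicate 1 and 11.1 in replicate 2.

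The mitotic cyclins and their kinase were spread more widely. Ccnb1 had folds of 15.3 and 15.9 and Ccnb2 only 4.65 and 6.70, so the 2 B-type cyclins differed by more than the replicates did. Ccna2 had 8.60 and 7.88, and Cdk1, which binds all of these, had 10.8 and 11.7 in a peak of 2302 and 2363 bp. Among genes of the spindle and its checkpoint, Kif11, a motor, had 15.6 and 16.6, and Plk1, a mitotic kinase, had 12.7 and 10.4. Bub1, a checkpoint kinase, had 5.33 and 7.04 and Cdc20, which the checkpoint holds back, had 6.71 and 6.87. Top2a, which untangles DNA, had 11.4 and 15.1, and Mki67, the proliferation marker Ki-67, had 16.7 and 16.3 and 4 promoter peaks in each replicate.

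Of the inhibitors, the p21 gene Cdkn1a and the p27 gene Cdkn1b were alike, with folds of 21.3 and 22.1 and of 21.2 and 19.8. Cdkn1a was marked at its representative start with 15.2 and 19.3, and with 21.3 and 22.1 at a downstream start 2790 bp away. These starts differed by less than the widest ratio between replicates, so they cannot be ordered. The CpG ratio around the representative start of Cdkn1a, 0.126, was the lowest of all members. Cdkn2c, which codes for p18, had 10.9 and 11.6. Rb1 counted as marked with 18.0 and 15.6, but this peak has its replicate 1 summit 87300 bp inside the gene, over the start of Lpar6 and near a non-coding Rb1 transcript. At Rb1's own start the folds were 13.5 and 12.1.

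**Figure D3:**
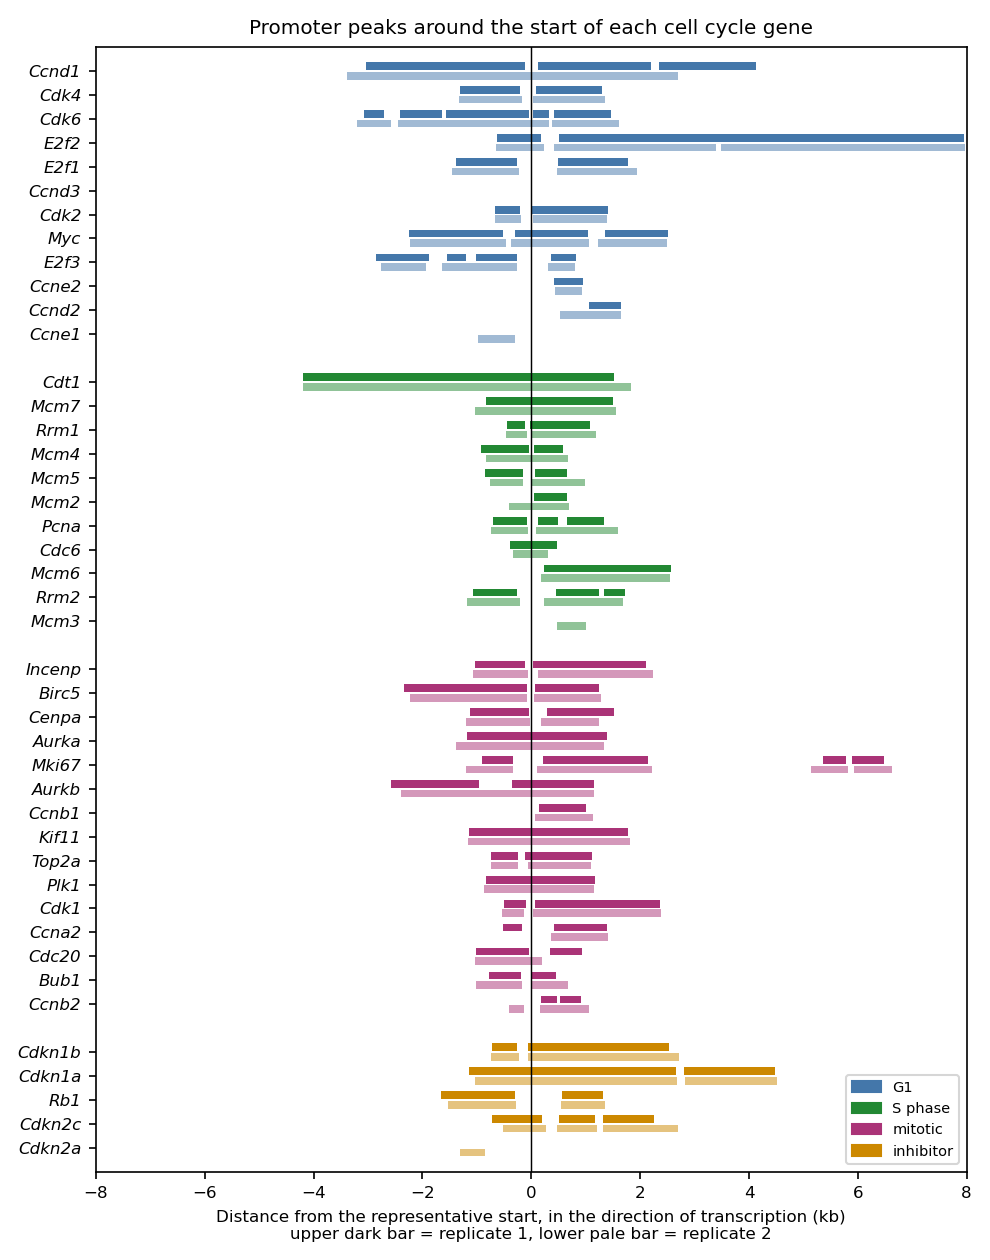
Promoter peaks of each member along the distance from its representative start (horizontal axis, kb, in the direction of transcription), replicate 1 as the upper dark bar and replicate 2 as the lower pale bar. Gaps in the calls fall at the start itself in many genes, and E2f2, Ccnd1 and Cdt1 have the longest bars. Ccnd3 has none here because its peaks lie at internal starts.

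Peaks were split around the start in many members. In replicate 1, 19 of the 38 members with a peak within 1 kb of the representative start had a peak on each side of it and none over it, 14 had a peak over it, 5 had peaks downstream alone and 0 upstream alone. Among all genes with such a peak the shares were 27.1%, 41.4%, 18.7% and 12.9%. In replicate 2 the counts were 15, 19, 6 and 2 of 42, beside 23.7%, 48.0%, 17.3% and 11.03% of all genes with such a peak, so a peak over the start was the most common form there. The summit of the highest peak lay downstream of the representative start in both replicates in 27 of 40 marked members (67.5%), beside 56.3% of all marked genes. At the representative start alone 38 members were marked, against 36.6% of all genes; Ccnd2 and Ccnd3 were the marked members that dropped out.

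Several members have more than 1 promoter. The starts of the 43 members fell into 105 clusters at least 1 kb apart, of which 54 had a peak of both replicates, and 27 of the 34 members with several clusters had at least 1 without. Of the other 51 clusters, 42 start non-coding transcripts alone. Clusters were not counted over all protein-coding genes, so these counts are not read as particular to the members. In 7 members a cluster that starts a coding transcript lacked a peak of both replicates: Ccnd2, Ccnd3, Ccne1, Cdkn1a, Cdkn2a, Incenp and Mcm3.

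The classes of members differed in where their promoter peaks ranked, and the other cell cycle genes listed below had lower medians in every class. By fold within the replicated list, where 100 is the highest, the median was the 88.4th percentile for the 4 inhibitors with a peak there, 84.3 for the mitotic class, 78.1 for G1 and 70.3 for S phase. All marked genes had a median of 73.8, and all genes with a peak 70.0. Within each class the range was wide, from 47.5 (Ccnb2) to 97.6 (Incenp) in the mitotic class and from 10.9 (Mcm3) to 97.6 (Cdt1) in S phase. S phase was the lowest class in each replicate too, with 66.7 and 61.9, while the mitotic class had 82.1 and 83.1. The inhibitors were above the mitotic class in replicate 1 (88.9) and not in replicate 2 (82.3), where Cdkn2a has a peak, nor when the representative start alone was used (84.0 against 84.3), where Rb1 takes its own start.

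Widths followed the same order only in part. Median widths in the replicated list were 2262 bp for inhibitors, 1958 bp for mitotic genes, 1655 bp for S phase and 1450.5 bp for G1, beside 1248 bp for all marked genes. In the replicate lists the mitotic class had 1501 and 2018 bp and the inhibitors 2127.5 and 1699 bp, while G1 (1222 and 1407.5 bp) was wider than S phase (867.5 and 1176 bp), the reverse of their order in the replicated list. A difference in width between these last classes was therefore not seen beyond the spread of the lists. Taking the highest-fold peak of each member in the replicated list, the widest in G1 and S phase were E2f2 (7793 bp) and Cdt1 (6053 bp). Those of the mitotic class and the inhibitors were Aurka (3073 bp) and Rb1 (3445 bp, the peak over Lpar6). The narrowest such peak was that of Ccne2 (547 bp). Cdkn1a also had a peak of 3846 bp at its representative start, wider than that of Rb1, which was not its highest by fold.

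**Figure D4:**
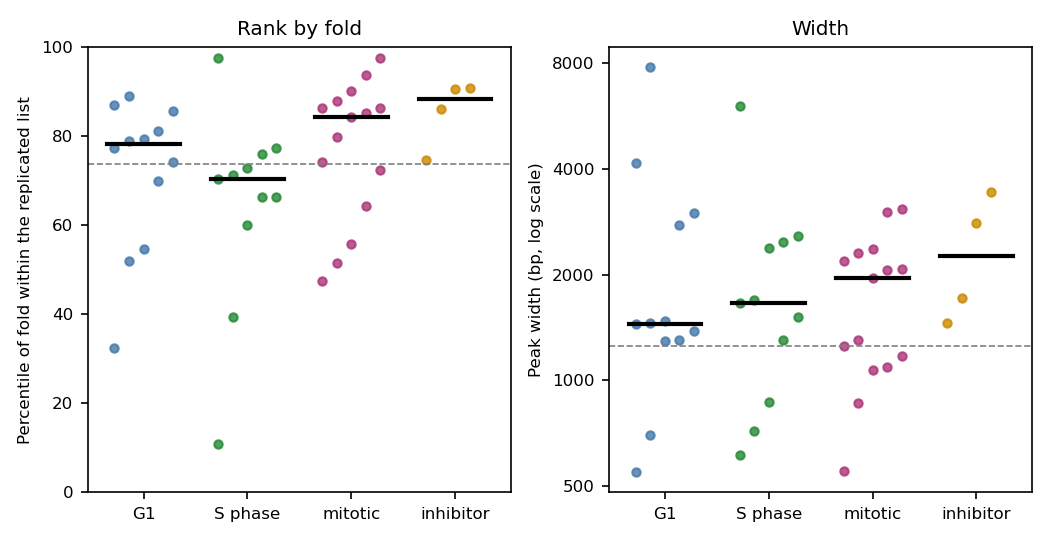
Percentile of fold (left axis panel) and width in bp on a log scale (right panel) of the highest promoter peak of each member in the replicated list, by class. Black bars are class medians and dashed lines the medians of all marked genes (73.8 and 1248 bp). S phase has the lowest median percentile (70.3), and points of the 4 classes overlap.

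Folds of mitotic members with and without the CHR word overlapped. The 9 with it ran from 5.94 to 18.8 in the replicated list, and the 6 without, Ccna2, Ccnb1, Birc5, Cenpa, Bub1 and Incenp, from 6.49 to 33.7. Median folds with and without it were 12.7 and 18.5 in replicate 1, and 15.1 and 17.0 in replicate 2. Incenp and Birc5, the highest of the class in both replicates, were without it, as were Ccna2 and Bub1, which were among the lowest. In S phase the 6 members with an E2F word and the 5 without had median folds of 9.46 and 10.3 in replicate 1 and of 9.64 and 9.05 in replicate 2, so the order changed between replicates.

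Away from promoters, members had a mean of 1.0 distal peak within 25 kb of the 5′ end, counting peaks seen in both replicates that lay more than 1 kb from the starts of all protein-coding genes. The mean was 0.481 over all genes and 0.889 over marked genes. At least 1 such peak was found for 21 of 43 members (48.8%), beside 26.0% of all genes and 45.1% of marked genes. The means were 0.917 for G1, 0.909 for S phase, 0.933 for the mitotic class and 1.6 for the inhibitors, of which 4 of 5 had at least 1. Of the 43 distal peaks, 28 were nearer to the member than to any other protein-coding start, and counted in this way the means were 0.917, 0.273, 0.467 and 1.40.

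Cdkn1a and Cdkn1b each had 3 distal peaks, all nearest to them. For Cdkn1a the strongest lay 12041 bp upstream (chr17:29077819-29080051) with folds of 30.3 and 28.2. Both exceeded its promoter folds, but within the widest ratio between replicates. A second peak lay 9113 bp upstream with 17.4 and 17.2. The third, 5048 bp downstream inside the gene, had 5.07 and 3.18. For Cdkn1b the peaks lay downstream of the gene, 6882 bp (23.7 and 25.5), 9566 bp (13.1, within the same replicate 2 peak) and 12398 bp (8.60 and 5.87) from the 5′ end. Rb1 had 1, 8277 bp upstream, with 14.6 and 15.6, and Cdkn2c 1 of 5.33 and 6.37 that is nearer to Faf1. Cdkn2a had none within 100 kb.

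Incenp was the mitotic gene with strong distal peaks that lay nearest to its own start. Whether these peaks act on Incenp was not tested. They lay 14137 and 18282 bp upstream, at chr19:9911280-9916097 and chr19:9916305-9919361, with replicate 1 folds of 30.1 and 31.2. Replicate 2 called both as a single peak of 31.9-fold, and the replicated list placed it at the 98.4th percentile. The third, 21586 bp upstream, had 4.30 and 2.77. Cdt1 and Aurkb had 5 distal peaks each, but only 1 of the 5 was nearest to the member in either case. The counts follow the calls of replicate 1. Those 10962 and 8477 bp upstream of Cdt1 had the same replicate 2 fold (37.1). So had those 17678 and 18333 bp downstream of Aurkb (10.4), and each pair may lie within a single replicate 2 peak. The highest beside Cdt1, 10962 bp upstream with folds of 37.1 and 37.1, was nearer to a start of Piezo1, and the 3 downstream of Aurkb were nearer to Borcs6. The strong peaks upstream of Mcm5 (18.0 and 20.1, and 17.9 and 19.1) were likewise nearer to Hmox1, a heme-degrading enzyme gene.

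**Figure D5:**
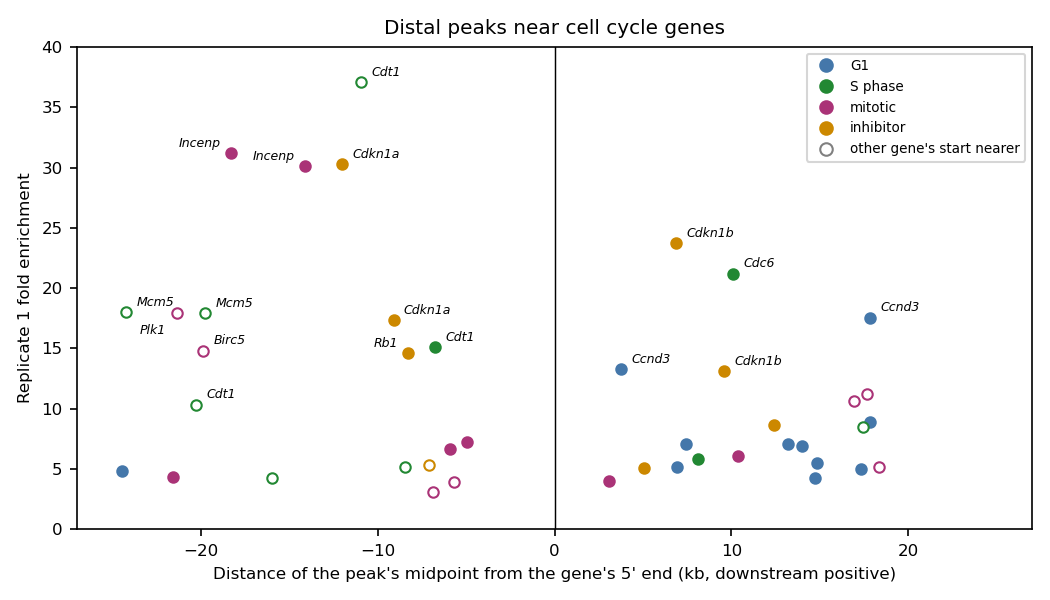
Distal peaks within 25 kb of members, by distance of the midpoint from the gene's 5′ end (horizontal axis, kb) and replicate 1 fold (vertical axis, linear). Open points are nearer to the start of another protein-coding gene. The highest filled points belong to Incenp (31.2 and 30.1) and Cdkn1a (30.3).

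The rest of the pathway was read from a list of 146 other cell cycle genes, of which 127 (87.0%) were marked. By class these were 60 of 62 mitotic genes, 36 of 43 S phase genes, 18 of 21 inhibitors and checkpoint genes, and 13 of 20 G1 genes. The 135 with a peak in the replicated list had a median fold of 9.39. That was below the 12.5 of the members and the 10.2 of all genes with such a peak. By percentile in that list the medians were 79.5 for inhibitors and checkpoint genes, 69.0 for mitotic genes, 61.8 for G1 and 58.4 for S phase. All genes with such a peak had 70.0. Median widths were 1173, 1158, 1115 and 1088 bp in the same order, beside 1138 bp. Each class median of rank and width was below that of the members, so the members' values do not stand for their whole class. The highest in each class were Skp1a (17.9 and 20.9) and Lin9 (13.9 and 12.7) in G1, Orc6 (28.2 and 28.5) and Orc4 (24.95 and 30.5) in S phase, Cks1b (26.3 and 29.2) and Kif20a (22.0 and 25.8) in mitosis, and Ccng2 (25.3 and 19.6) and Trp53 (24.6 and 17.8) among inhibitors. Orc6, Orc4, Cks1b, Kif20a and Trp53 share their promoter with another protein-coding gene. A peak was missing in both replicates at 14 genes, the first 10 of them in alphabetical order being Cdkn1c, Dut, E2f5, E2f6, E2f7, Gins3, Gins4, Mybl2, Nek2 and Orc2. Cdkn2b, beside Cdkn2a on chromosome 4, had a peak in replicate 2 alone (4.02-fold), as Cdkn2a did. Among these genes CHR with CCAAT lay in 26 of 62 mitotic genes (41.9%) and 1 of 43 S phase genes (2.33%), and the E2F word in 8 of 43 S phase genes (18.6%) and 2 of 62 mitotic genes (3.23%). Other words fell differently from the members: CCAAT lay in 15 of 21 inhibitors and checkpoint genes, against 1 of 5 among the members, and the E-box in 7 of 43 S phase genes and 4 of 21 inhibitors and checkpoint genes, against 0 in both classes of members.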

How the data were processed

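H3K27ac peaks were analysed in 2 replicates of 1 group. The authors deposited 4 peak lists on mm10: 1 of pseudoreplicated peaks from each library, and a replicated and a pooled pseudoreplicated list made from both libraries together, per the deposited text files. The deposited lists give a fold per peak, which is a ratio to control or background on a linear scale, and a q-value as −log10. The aligner, the peak caller and the depth are not given in the sources used here, and no step that scales folds between lists is recorded, so ranks were taken within a list. Where a gene had several promoter peaks, the one with the highest fold was used. Distal peaks are replicate 1 peaks that a replicate 2 peak overlaps, placed by midpoint. Genes are those of GENCODE mouse release M21 on GRCm38, with 21938 protein-coding genes and 93513 starts. Sequence was read from the GRCm38 genome, and 34 of 43 members matched the RefSeq promoter table for GRCm38.p6, all 34 with identical letters. The CpG ratio (observed over expected) covers 500 bp either side of the representative start. Work was done in Python 3.11.15 with figures from matplotlib 3.10.9, and the scripts were tested on simulated peaks and words.

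The members, the list of other cell cycle genes and the markers were chosen with earlier results of these data known. Members are compared by counts and medians with no test, since 2 libraries of 1 group allow none between conditions and genes are not replicates. Every member is named, and of the other genes the 2 highest by fold in each class and, of those lacking a peak in both replicates, the first 10 by alphabet.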

Additional observations from a re-analysis of the deposited data

How the results depend on the processing

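The count of marked members stayed between 36 and 43, and each class count within 1.5 times its value, under every alternative run. For the other cell cycle genes only the window and single-replicate alternatives were run, and their count also stayed within 1.5 times its value. The use of the representative start alone was chosen after the data were seen. Of the 4 word counts recomputed, E2F in S phase and CHR and CCAAT in the mitotic class stayed within that range, and E-boxes in G1 members rose from 3 to 6 in the longer window from 500 bases before to 100 after the start. That window also raised CHR from 12 to 21 of all members, from 1 to 4 in S phase and from 12.3% to 33.5% of all genes. Each replicate alone gave median widths of 1222 to 1407.5 bp (G1), 867.5 to 1176 bp (S phase), 1501 to 2018 bp (mitotic) and 1699 to 2127.5 bp (inhibitors), and median percentiles of 73.9 to 76.1, 61.9 to 66.7, 82.1 to 83.1 and 82.3 to 88.9. It gave mean distal counts of 0.917 to 1.08, 1 to 1.27, 0.8 to 1.20 and 1.80 to 2 in the same order of classes.

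Inhibitor width was 1720 bp in the pooled list and 3124.5 bp with the widest promoter peak. Without genes that share a promoter, the percentile was 66.4 for S phase and 82.0 for the mitotic class. Mean distal counts in the order above were 0.25, 0.273, 0.333 and 1.20 within 10 kb, and 2.83, 3.27, 3.27 and 3.8 within 100 kb. Counted for the nearest gene alone they were 0.273 for S phase, 0.467 for the mitotic class and 1.40 for inhibitors. Distal peaks of the replicated list gave 1.18 for S phase and 2.60 for inhibitors. S phase had the lowest percentile and the inhibitors the highest distal count in every setting run, whereas the order of G1, S phase and mitotic genes by distal count changed between settings. The cause of these shifts was not tested, apart from those that follow from a longer or shorter distance. No paired analysis was possible because the samples form a single group. Unknown depth limits the reading of any missing peak.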
